A study of Mus musculus with 4 samples.

Results

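The effects of mechanical strain and of a cancer cell line's conditioned medium on mouse pre-osteoblasts were compared for additivity: whether the level of a transcript under both treatments was the one that the 2 single treatments together would give. The genes described are those with a sum of at least 100 counts over the 4 libraries, 12041 of the 41288 genes in the deposited table (29.2%), which held 99.55% of all counts. The cells were MC3T3-E1, a line from mouse skull that can mature into bone-forming osteoblasts, labelled wild type in all groups and grown to confluence. The control group had neither treatment. The strain group was put under tensile strain of 2500 microstrain at 0.5 Hz for 1 h per day. For the medium group the culture medium was replaced by one conditioned by PC-3, a line derived from a bone metastasis of human prostate carcinoma. The last group had the medium and the strain, and is called both treatments here. Each group had 1 library, so no test between groups was possible, and differences between cultures or batches cannot be told apart from those of the treatments. There was no medium conditioned by another cell type.

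Bone cells sense load and change their matrix and signalling genes, and tumours that grow in bone release factors that act on osteoblasts. Mineralized matrix holds acidic phosphoproteins, among them osteopontin and dentin matrix protein 1. Load and secreted factors also act on cell division and on the early genes of the AP-1 and TGF-beta pathways.

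The table names its columns by letters. LT was read as both treatments and O as the control. L was read as loading, a word used in the titles of strained samples, and T as conditioned medium by elimination. If T stood for tensile, the strain and medium libraries would exchange places in every level and single response given for them. The departure from additivity itself is the same under either reading, because the single treatments enter it in the same way.

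For each gene the departure was the log2 ratio of both treatments to medium minus the log2 ratio of strain to control, on RPKM (read counts divided by gene length and by library size) with 1 RPKM added. It is 0 where the ratios of the single treatments multiply. A positive departure means that the level under both treatments lay above that product, and a negative one that it lay below. A gene was called where the departure was at least 0.5 either way and its 95% counting interval excluded 0. The interval was computed for each gene from the Poisson error of its 4 counts. It covers counting error only, not variation between cultures, and it was not adjusted for the number of genes. The count minimum lets in genes with wide intervals: the 80 genes with sums of 100 to 104 had departures from -1.09 to 1.15 with a median counting standard error (SE) of 0.27, and the 85 genes just outside, with sums of 95 to 99, had departures from -0.94 to 0.92 and the same median SE.

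The libraries held 10997085 counts in the control, 10722179 with strain, 10659166 with medium and 10007546 with both treatments. The genes of the osteoblast lineage Runx2, a transcription factor, and Col1a1, of type I collagen, were present in every library, at 12.3 to 16.3 RPKM and 460 to 587 RPKM. The osteocalcin gene Bglap had a sum of 14 counts, and Sost and Mepe, genes of osteocytes, had none. Of 10 marker genes each for adipocytes, endothelial cells and epithelial cells, none reached 100 counts, and their summed level was 0.605 to 1.87 RPKM in any library. Of 10 macrophage and osteoclast markers 2 reached the minimum, Lyz2 (lysozyme) at 24.2 to 30.7 RPKM and Ctsk (cathepsin K) at 6.07 to 6.9 RPKM, with a summed 30.9 to 38.5 RPKM for the list. Ptprc, the pan-leukocyte gene in it, and Epcam, an epithelial gene, had 0 counts. Of the skeletal muscle markers 3 of 10 reached the minimum, at a summed 10.6 to 14.9 RPKM for the list, with the muscle regulators Myod1 and Myog at 0. A pair of overlapping genes at an 18S ribosomal RNA-related locus, Rn18s-rs5 and LOC101056014, took 1.93% of counts in the control, 3.56% with strain, 2.69% with medium and 4.27% with both. Leaving these out of the library totals gave 149 genes called above and 227 called below, in place of the 148 and 222 described next.

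Most genes lay near additivity. The median departure over the 12041 genes was -0.006, with 5869 genes above 0 and 6172 below. The call was met above additivity by 148 genes (1.23%) and below by 222 (1.84%), 370 in all. The interval alone lay above 0 for 1017 genes and below 0 for 1152. A departure of at least 1 was called for 6 genes above and 22 below. With intervals wide enough to hold for all genes jointly (4.6 SE), an alternative added after the data were seen, 9 genes remained called above and 49 below.

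**Figure D1:**
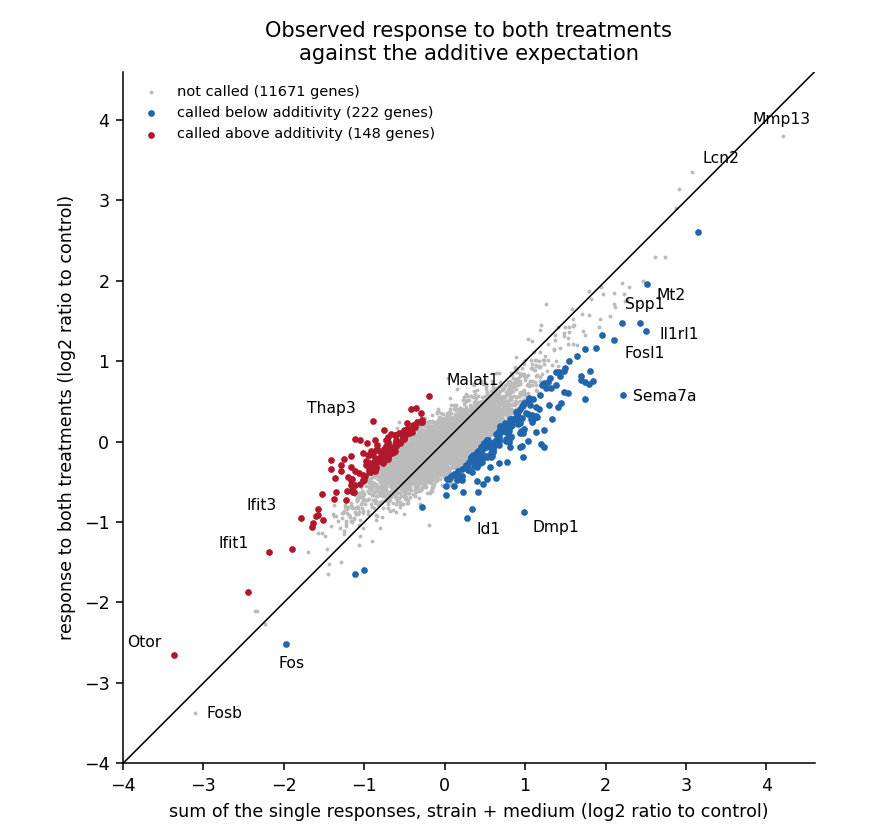
Each point is 1 of the 12041 genes. The x axis is the sum of the log2 ratios of strain and of medium to control, the y axis the log2 ratio of both treatments to control, and the line marks additivity. The 148 genes called above additivity (red) lie mainly where the sum is below 0, and the 222 called below (blue) mainly where it is above 0. Both axes hold the control library, and the x axis also holds the strain and medium libraries, which enter the departure with the opposite sign.

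The called genes fell mostly on the side where both treatments together did less than the single responses added up to. Of the 222 genes below additivity, 180 had higher values than the control in each single-treatment library, 39 had 1 higher and 1 lower, and 3 had both lower. Of the 148 genes above additivity, 146 had lower values than the control in each single-treatment library. Over all 12041 genes, 3074 were higher in both and 4779 lower in both. The control was the lowest library for 120 of the 222 and the highest for 108 of the 148. Among all 12041 genes it was the lowest for 2341 and the highest for 4374. The control library enters both single responses and the departure, so that an extreme control value moves all of them together. The strain and medium libraries enter the departure with the opposite sign, so that a high value in either raises its single response and lowers the departure. These counts thus follow in part from how the departure is computed, and the part of each library in them was not tested. The level under both treatments was the lowest of the 4 libraries for 92 genes below additivity and the highest for 40 genes above it. Among all 12041 genes it was the lowest for 4085 and the highest for 1713.

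Read by size, with a log2 ratio to control of 0.5 as the limit, 101 of the 222 genes below additivity and 69 of the 148 above had neither single response past it. Of the 222, 54 passed it with strain alone and returned within it under both treatments, 19 passed it with medium alone and returned within it, and 17 passed it with medium alone and kept it under both. A further 26 passed it with each treatment in the same direction and 2 in opposite directions. Strain alone passed it in the last 3, of which 1 kept it under both treatments and 2 passed it in the other direction. Of the 148, 24 passed it with strain alone and returned within it, 25 with medium alone and returned, 9 with medium alone and kept it, 20 with each treatment in the same direction and 1 with strain alone and kept it. Over all genes, 11005 passed it in no treated library and 178 only under both treatments. With strain alone 119 passed it and returned, 28 kept it and 2 passed it in the other direction. With medium alone 195 passed it and returned and 441 kept it. A further 64 passed it with each treatment in the same direction and 9 in opposite directions. In 28 genes below additivity the strain library stood apart, at least 0.5 from each other library while those 3 lay within 0.5 of one another. In 15 the control stood apart, in 3 the library with both treatments and in 2 the medium library. Over all genes these numbers were 41, 33, 7 and 9.

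**Figure D2:**
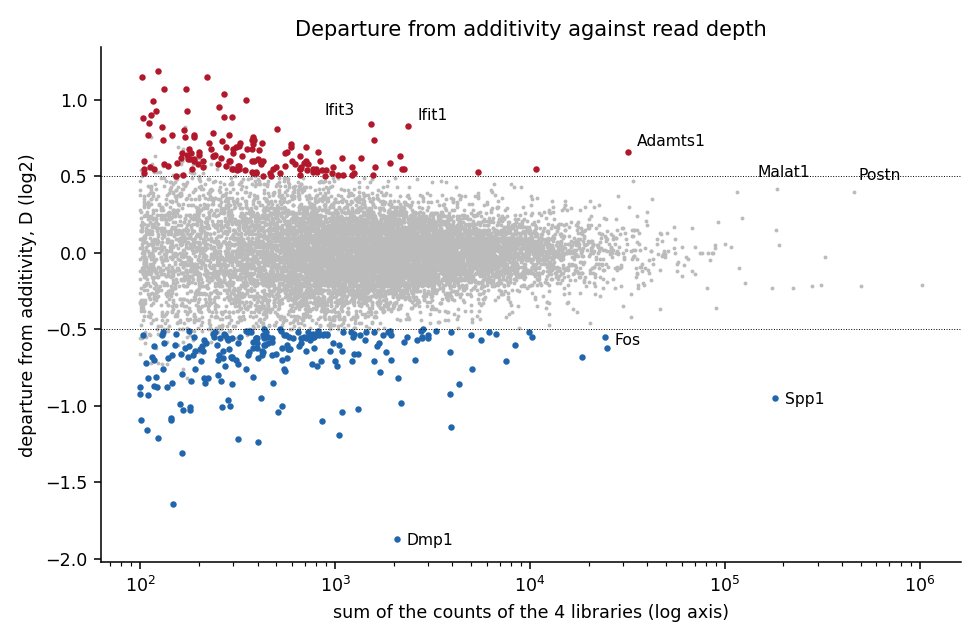
Departure from additivity on the y axis against the sum of a gene's counts over the 4 libraries on a log x axis, for 12041 genes. Dotted lines mark 0.5 and -0.5, red and blue points the called genes. Calls thin out to the right, where Spp1, Fos and Adamts1 are still called.

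Called genes were more frequent where counts were few. Of the 981 genes with sums from 100 to under 200, 3.98% were called above and 4.49% below, at a median counting SE of 0.26. Of the 2485 genes with 4000 counts or more, 3 (0.121%) were called above and 14 (0.563%) below, at a median SE of 0.07. Of the 11251 protein-coding genes 1.01% were called above and 1.72% below, and of the 598 lncRNA genes 4.68% and 3.85%, with median SEs of 0.13 and 0.23. For 90 of the 370 called genes an overlapping gene held at least 25% as many counts. How the authors' counting treated strand is not given in the sources used here, so that reads of such a pair may not be separated.

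Of the bone genes, Dmp1 (dentin matrix protein 1), Spp1 (osteopontin) and Mgp (matrix Gla protein, which holds mineral back) lay furthest below additivity. Dmp1, at chr5:104197558-104214109 in the table's positions, had 10.6 RPKM in the control, 41.2 with strain, 5.3 with medium and 5.29 with both treatments. The strain library alone was high, and the libraries with medium lay at the same level with and without strain. Multiplied ratios would give 22 RPKM under both, and the departure was -1.87 (95% counting interval -2.17 to -1.57), the lowest of all called genes.

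Spp1, at chr5:104435111-104441053, rested on 181546 counts in all. It had 1223 RPKM in the control, 2338 with strain, 3455 with medium and 3412 with both treatments, where multiplied ratios would give 6602. Strain and medium were each above the control, and adding strain to medium left the level within 0.02 on the log2 scale. The departure was -0.95 (-0.98 to -0.92), and -0.42, under the size of a call, where differences in RPKM were added in place of ratios. Mgp had 712, 1038, 1120 and 1064 RPKM in the order control, strain, medium and both, and a departure of -0.62 (-0.69 to -0.55). All 3 treated libraries stood at a like level above the control, and with added differences the departure was -0.44. Msx2, a homeobox factor of bone, had 4.63, 6, 5.03 and 4.11 RPKM and a departure of -0.55 (-1.0 to -0.11).

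The bone list was not of one direction. Of its 21 genes with enough counts, 12 lay below additivity and 9 above, with a median of -0.13 beside -0.006 for all genes, and 4 were called, all of them below. Of all genes 51.3% lay below 0 and 1.84% were called below. Postn, of the matrix protein periostin, was the clearest on the other side: 4735 RPKM in the control, 3711 with strain, 2095 with medium and 2170 with both, a departure of 0.40 (0.38 to 0.42) that is under the size of a call. Runx2 (0.18, 0.03 to 0.33) and Ogn (0.3, 0.24 to 0.36) also had intervals above 0. Ank, of a phosphate and pyrophosphate transporter, had 36.8, 51.8, 23.3 and 23.9 RPKM and a departure of -0.45 (-0.61 to -0.29). As with Dmp1, strain was above the control without medium and within 0.03 log2 of no strain with it.

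**Figure D3:**
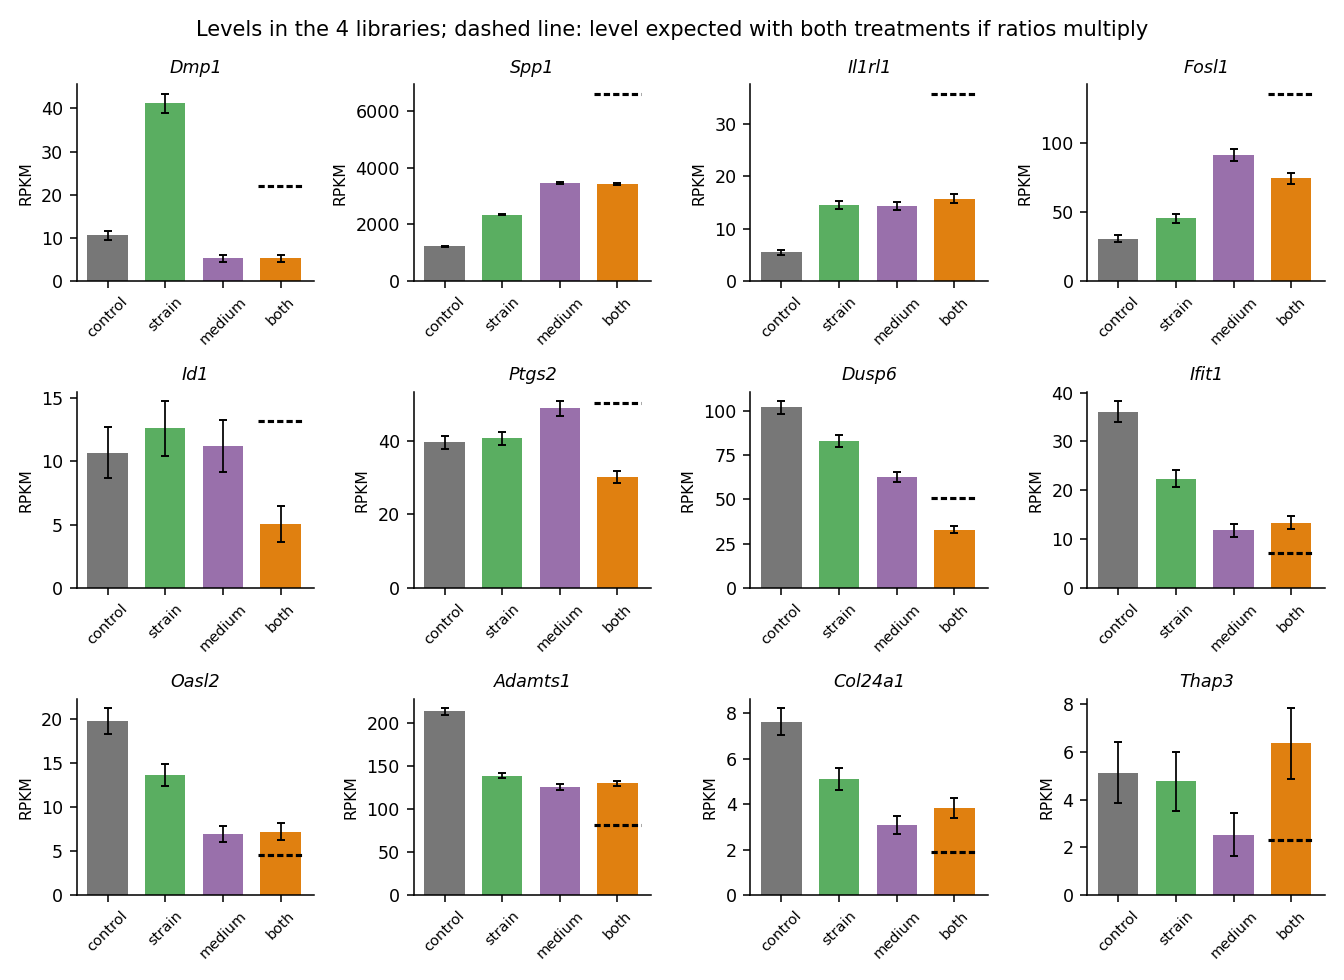
Bars show the RPKM of 12 named genes in each of the 4 libraries (1 library per group), with 95% counting intervals, and the dashed line the level expected under both treatments if ratios multiply. Dmp1, Spp1, Il1rl1, Fosl1, Id1, Ptgs2 and Dusp6 lie under the line, Ifit1, Oasl2, Adamts1, Col24a1 and Thap3 over it.

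Some genes were higher with either treatment and did not add up under both. Il1rl1, of the receptor of interleukin 33, had 5.47 RPKM in the control, 14.5 with strain, 14.3 with medium and 15.7 with both, where multiplied ratios would give 35.7. Its departure was -1.14 (-1.31 to -0.96), and the control stood apart from 3 like libraries. Snai1, of a repressor that acts in the mesenchymal programme, had 20.7, 34.2, 48 and 48 RPKM and a departure of -0.70 (-0.93 to -0.47). Txnip, of a protein that binds and inhibits thioredoxin, had 106, 182, 162 and 174 RPKM and a departure of -0.68 (-0.76 to -0.60). Hmga1, of a chromatin protein with near-identical copies elsewhere in the genome, had 5.73, 12.8, 10.8 and 10.3 RPKM and a departure of -1.10 (-1.45 to -0.74). With differences in RPKM added in place of ratios, Il1rl1 departed by -0.55, Hmga1 by -0.74, Txnip by -0.46 and Snai1 by -0.35, the last pair under the size of a call. Among genes chosen after their values were seen, Tnfrsf12a, of the receptor of the cytokine TWEAK, had 57, 87, 87.6 and 93.3 RPKM. Arrdc3, of an arrestin-domain protein, had 12.9, 20.6, 24.7 and 20, with departures of -0.51 and -0.92.

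Other genes were higher with strain and not when strain was added to medium. Sema7a, of a membrane-bound semaphorin, had 0.108 RPKM in the control, 2.89 with strain, 0.474 with medium and 0.654 with both, on 4, 104, 17 and 22 counts. Its departure was -1.64 (-2.05 to -1.24). Anxa8, of a calcium-dependent membrane-binding annexin, had 9.71, 20.8, 12.2 and 12 RPKM and a departure of -1.04 (-1.37 to -0.72). Lef1, of a factor that acts with beta-catenin in Wnt signalling, had 0.323, 1.3, 0.334 and 0.261 RPKM on only 100 counts (-0.88, -1.26 to -0.51). Levels near or under 1 RPKM make these departures depend on the added 1 RPKM: with 5 RPKM added that of Sema7a was -0.58, that of Lef1 -0.26 and so under the size of a call, and on ratios of count shares they were -4.12 and -2.32. Nfatc2, of a calcineurin-dependent factor and chosen after its values were seen, had 0.456, 1.78, 0.493 and 0.573 RPKM (-0.86, -1.14 to -0.57). In all of these the strain library was the highest and the other 3 were lower.

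Col2a1, of cartilage collagen, had 0.651, 2.37, 0.575 and 0.596 RPKM and a departure of -1.01 (-1.35 to -0.67). With 5 RPKM added the departure was -0.38, under the size of a call, and on ratios of count shares -1.80. Col2a1 is also one of 10 cartilage markers, of which 2 reached the count minimum. The other, the transcription factor gene Sox9, had 34.3, 28.2, 25.3 and 19.7 RPKM and so was highest in the control, and Acan and Hapln1, genes of the cartilage matrix, had sums of 20 counts and 1 count.

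In a smaller set the library with both treatments alone was low. Id1, of an inhibitor of basic helix-loop-helix factors and a target of bone morphogenetic protein (BMP) signalling, had 10.7 RPKM in the control, 12.6 with strain, 11.2 with medium and 5.02 with both, on 112, 129, 114 and 48 counts. The first 3 libraries overlapped in their counting intervals and the last lay under them, for a departure of -1.24 (-1.78 to -0.70). The uncharacterized gene 1810011O10Rik showed the same order, at 19.4, 21.5, 22.4 and 10.4 RPKM (-1.19, -1.53 to -0.84). Ptgs2, of the inducible cyclooxygenase that makes prostaglandins, had 39.5, 40.6, 48.8 and 30.2 RPKM, so that strain went with a log2 difference of 0.04 without medium and -0.67 with it. Its departure was -0.71 (-0.84 to -0.58).

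Dusp6, of a phosphatase that ERK signalling induces and that switches ERK off, was stepwise lower: 102 RPKM in the control, 82.8 with strain, 62.4 with medium and 33 with both, where multiplied ratios would give 50.6. Its departure was -0.60 (-0.73 to -0.47), and with added differences -0.38, under the size of a call. Of 12 ERK feedback genes 9 lay below additivity and 3 above, with a median of -0.13, beside 51.3% of all genes below 0. Dusp6 and the factor gene Etv4 (-0.85, -1.40 to -0.30) were called below, beside 1.84% of all genes. Etv4 had 0.765, 2.04, 1.54 and 1.43 RPKM, a different order from Dusp6. BMP pathway genes had a median of -0.06 over 18 members, with Id1, Bmp4 (-0.60, -1.11 to -0.08) and Msx2 called below and none above, beside 1.84% and 1.23% of all genes.

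AP-1 is a dimer of Fos and Jun proteins whose genes respond within minutes to serum, growth factors and load. Fos had 490 RPKM in the control, 235 with strain, 260 with medium and 84.9 with both treatments. Each single treatment was lower than the control, and both treatments lower than the 124 RPKM of the multiplied ratios, for a departure of -0.55 (-0.64 to -0.46). On the linear scale, where the differences in RPKM are added in place of the ratios, strain and medium together would take Fos to 4.74 RPKM, and the same values gave a departure of 3.90: the direction for Fos depends on the scale. Fosb, at 164, 47.8, 63.7 and 15 RPKM, departed by -0.25 (-0.39 to -0.11) with multiplied ratios. Its decreases with strain and with medium add up to more than its control level. On the linear scale Fosb under both treatments thus lay above the expectation, as did Fos.

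Fosl1, of another Fos protein, moved the other way, at 30.6, 45.5, 91.7 and 74.5 RPKM. Both treatments lay under medium alone, and the departure was -0.86 (-1.04 to -0.67). Fosl1 overlaps Ccdc85b on the opposite strand. Of 29 immediate early genes, 22 lay below additivity and 7 above, with a median of -0.11, beside 51.3% of all genes below 0, 1.84% called below and 1.23% called above. Fos, Fosl1, Ier3 (-0.53, -0.67 to -0.39) and Klf10 (-0.56, -0.76 to -0.36) were called below and Arc (0.58, 0.09 to 1.07), on 132 counts, above. With added differences Ier3 was at -0.43 and Klf10 at -0.47, under the size of a call. Klf2, Klf4, Junb and Zfp36, which were lower with each treatment, had intervals that held 0, with departures from -0.09 to 0.03. The list's median was 0.01 on the linear scale.

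Transforming growth factor beta (TGF-beta) signals through SMAD factors and induces matrix and feedback genes. Of 22 genes of its response 16 lay below additivity, with a median of -0.17, and 5 were called below and none above, beside 51.3% of all genes below 0 and 1.84% and 1.23% called below and above. Ctgf, of connective tissue growth factor and also a target of the mechanosensitive YAP and TEAD factors, had 12.7, 21.3, 16.9 and 15.8 RPKM (-0.78, -1.05 to -0.52). Tgfbi, of a matrix protein, had 5.81, 10.6, 5.96 and 6.08 (-0.74, -1.10 to -0.39), and Skil, of a SMAD repressor, 6.29, 10.1, 6.77 and 7.07 (-0.55, -0.76 to -0.34). In all 3 the strain library was the highest. Smad7, the inhibitory SMAD, had 5.69, 6.93, 7.18 and 5.78 RPKM (-0.52, -0.80 to -0.23), each single treatment a little above control and both treatments level with it. Fn1, of fibronectin, rested on 502682 counts and had a departure of -0.22 (-0.23 to -0.20), small beside its precision. The ligand genes Tgfb1 to Tgfb3 lay between -0.12 and 0.24, and the receptor genes Tgfbr1 to Tgfbr3 between -0.12 and 0.20.

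Genes of mitosis are switched on late in the cell cycle, in part through a promoter element called the CHR, and their summed level follows the number of dividing cells. Of 40 such genes 39 lay below additivity and 1, Fam64a (0.03, -0.34 to 0.41), above. The median was -0.25 and the interval lay below 0 for 21. Of all 12041 genes 51.3% lay below additivity, and the interval lay below 0 for 1152. Cdc25c, of a phosphatase that starts mitosis, had 4.45, 8.98, 3.31 and 2.93 RPKM in control, strain, medium and both (-1.0, -1.43 to -0.58). Aurka, of a spindle kinase, had 17.8, 26.6, 15.5 and 14.9 (-0.61, -0.88 to -0.34) and overlaps Cstf1 on the opposite strand. Ube2c, of an enzyme that tags mitotic proteins for destruction, had 35.2, 52.4, 19.2 and 19.6 (-0.53, -0.87 to -0.20). These 3 of the 40 were called, beside 1.84% of all genes. All 40 genes were highest in the strain library, and 34 were lowest in the medium library, beside 2953 and 2742 of all 12041 genes. Their median log2 ratio for strain was 0.34 without medium and 0.08 with it. In bulk RNA fewer dividing cells and less RNA per cell cannot be told apart.

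Genes of replication and the G1/S step followed with a median of -0.15 over 38 members, 29 of them below additivity and none called, and the strain library was the highest for 35. Among 14 histone genes 12 lay below, with a median of -0.24, and Hist1h1c (-0.50, -0.72 to -0.29), Hist1h1d and Hist1h2be were called below. Of all genes 51.3% lay below 0 and 1.84% were called below. With added differences Hist1h1c was at -0.38, under the size of a call. Hist1h1d and Hist1h2be had 110 and 107 counts, and near-identical histone genes may share reads.

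**Figure D4:**
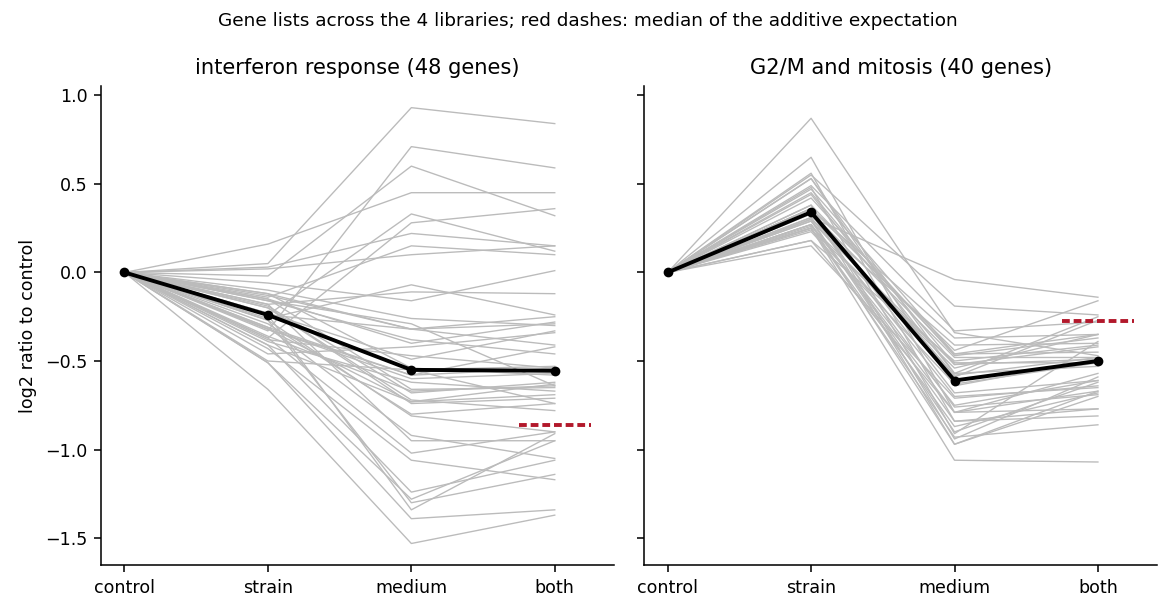
Log2 ratio to control in the 4 libraries for 48 interferon-response genes (left) and 40 G2/M genes (right). Grey lines join the values of 1 gene, the black line the medians, and red dashes mark the median of the sum of the single responses. The interferon median under both treatments lies above the dashes, and the G2/M median below.

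The RefSeq promoters of the called mitotic genes Ube2c (chr2:164769679-164769978, plus strand) and Aurka (chr2:172370521-172370820, minus strand) are shown because 39 of the 40 listed genes lay on 1 side of additivity. Each runs from 250 bases before to 50 after the start in GRCm38.p6, 5′ to 3′, with matches to the CHR letters TTTGAA on either strand in capitals.
Ube2c: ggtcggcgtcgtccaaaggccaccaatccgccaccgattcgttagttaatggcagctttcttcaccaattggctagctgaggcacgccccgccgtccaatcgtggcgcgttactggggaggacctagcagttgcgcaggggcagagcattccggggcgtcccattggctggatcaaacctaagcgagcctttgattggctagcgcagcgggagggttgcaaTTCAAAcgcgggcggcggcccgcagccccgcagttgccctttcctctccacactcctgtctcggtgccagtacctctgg
Aurka: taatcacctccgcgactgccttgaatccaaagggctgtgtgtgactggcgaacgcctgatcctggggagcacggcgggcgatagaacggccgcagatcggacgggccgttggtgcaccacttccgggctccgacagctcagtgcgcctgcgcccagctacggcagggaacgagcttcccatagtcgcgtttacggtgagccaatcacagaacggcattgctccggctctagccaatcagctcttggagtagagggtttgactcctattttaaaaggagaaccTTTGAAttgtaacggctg
The match in Ube2c starts 29 bases before the start site and that in Aurka 32 bases after it. Of the 40 genes 32 had a promoter in the RefSeq set, and 23 of these (71.9%) held TTTGAA, against 20.2% of all 27025 genes with promoters of that length. The CCAAT letters were in 25 of the 32 (78.1%) against 41.1%. A match describes the sequence and shows no binding.

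Interferons act on an element called the ISRE, and switch on antiviral genes that many cells also express at a low basal level. This list had the highest median. Of 48 genes 43 lay above 0, beside 48.7% of all genes, and the median was 0.24. The interval lay above 0 for 20 and below for 2 (Ifitm1 and Ifitm3), beside 1017 and 1152 of all 12041 genes. Of the 48, 8 were called above and none below, beside 1.23% and 1.84% of all genes. Ifit1, of an antiviral RNA-binding protein, had 36.1 RPKM in the control, 22.4 with strain, 11.8 with medium and 13.4 with both treatments, where multiplied ratios would give 7.1. Its departure was 0.83 (0.58 to 1.07). Ifit3, its partner, had 20.9, 14.4, 8.03 and 10.4 RPKM (0.84, 0.55 to 1.12). In both genes the control was the highest, strain lay lower, and the libraries with medium were the lowest, with strain not lowering them further.

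Oasl2, of the 2'-5' oligoadenylate synthetase family, had 19.8, 13.7, 6.94 and 7.23 RPKM (0.56, 0.28 to 0.84). Irf7, of the factor that amplifies interferon production, had 7.57, 6.27, 2.38 and 3.57 (0.67, 0.19 to 1.16). Rtp4 (0.60, 0.13 to 1.06), Gbp7 (0.54, 0.22 to 0.86), Parp14 (0.53, 0.27 to 0.78) and Xaf1 (0.51, 0.20 to 0.82) were the other called members. With 5 RPKM added, Ifit1 (0.71) and Ifit3 (0.65) kept the size of a call, and the other 6, at 0.22 to 0.45, did not. With TMM scaling Xaf1 was at 0.49. The control was the highest library for 38 of the 48 genes and the medium library the lowest for 23. Over all 12041 genes these numbers were 4374 and 2742. The list's median log2 ratio for strain was -0.24 without medium and 0.02 with it. Stat2 (0.48, 0.27 to 0.69), Oas2 (0.49, 0.26 to 0.73) and Ifi27l2a (0.43, 0.18 to 0.68) fell just short of the size, while Ifit2 (0.04, -0.16 to 0.24) and Irf1 (-0.10, -0.33 to 0.13) did not depart beyond counting error. Reads of the Ifit genes, which are related in sequence, may be shared.

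The promoters of 3 called interferon genes are shown for the ISRE letters GAAANNGAAA, where N is any base, matched on either strand: Ifit1 (chr19:34640639-34640938), Ifit3 (chr19:34583279-34583578) and Gbp7 (chr3:142530086-142530385), all on the plus strand of GRCm38.p6 from RefSeq.
Ifit1: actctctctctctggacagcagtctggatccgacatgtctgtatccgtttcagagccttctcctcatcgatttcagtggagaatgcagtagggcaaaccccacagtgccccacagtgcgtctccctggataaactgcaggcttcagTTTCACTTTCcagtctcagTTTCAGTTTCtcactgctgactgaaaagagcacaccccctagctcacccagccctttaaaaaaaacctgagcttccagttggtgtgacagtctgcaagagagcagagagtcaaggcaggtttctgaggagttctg
Ifit3: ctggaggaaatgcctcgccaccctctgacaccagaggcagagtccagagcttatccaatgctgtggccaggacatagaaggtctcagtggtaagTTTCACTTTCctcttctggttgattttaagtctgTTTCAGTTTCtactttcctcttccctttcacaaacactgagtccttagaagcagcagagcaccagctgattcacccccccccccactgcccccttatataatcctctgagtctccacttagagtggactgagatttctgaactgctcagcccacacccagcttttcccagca
Gbp7: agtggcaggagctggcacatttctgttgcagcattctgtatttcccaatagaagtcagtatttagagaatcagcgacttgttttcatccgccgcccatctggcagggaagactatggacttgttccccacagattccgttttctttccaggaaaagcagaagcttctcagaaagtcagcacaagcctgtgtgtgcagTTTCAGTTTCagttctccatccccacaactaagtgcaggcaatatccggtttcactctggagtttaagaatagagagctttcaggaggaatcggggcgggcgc
Ifit1 held 2 matches, starting 104 and 85 bases before the start site, Ifit3 held 2, at 156 and 122 bases before it, and Gbp7 held 1, at 53 bases before it. Irf7, Oasl2 and Xaf1 held none in this window, and Rtp4 and Parp14 had no promoter in the set. The letters were in 3.99% of all 27025 genes with promoters. Only 37 of the 48 listed genes (77.1%) had a promoter in the set, under the minimum of 80% set for reading a share, so none is given for the list.

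Antigen presentation genes, many of which interferon also induces, lay a little above additivity, with 12 of 14 above 0 and a median of 0.08. Of all genes 48.7% lay above 0. Psmb9, of an immunoproteasome subunit, had 7.46, 6.69, 5.75 and 8.96 RPKM on 323 counts (0.70, 0.14 to 1.25). Erap1, of a peptide-trimming protease, had 5.13, 4.19, 3.36 and 4.37 (0.54, 0.23 to 0.85) and overlaps Cast on the opposite strand. B2m, of the invariant chain of class I molecules, had 1113, 955, 821 and 784 RPKM and a departure of 0.15 (0.09 to 0.22). H2-D1 and H2-K1, of class I heavy chains, had 0.02 and 0.12 with intervals that held 0.

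Matrix and adhesion genes lay on both sides. Of 25 collagen genes 17 lay below additivity, with a median of -0.07, as did 18 of 29 other matrix proteins (median -0.07), 18 of 24 matrix proteases and inhibitors (-0.11) and 11 of 21 integrins and junction genes (-0.04), beside 51.3% of all genes. In these lists the called genes were Col24a1, Matn4, Adamts1 and Itga8 above and Col2a1 below, beside 1.23% and 1.84% of all genes. Col4a1, of basement membrane collagen (-0.46, -0.53 to -0.38), and Col3a1, of a fibrillar collagen (-0.36, -0.40 to -0.32), lay below with less than the size of a call, as did Nid2, of a basement membrane protein (-0.37, -0.46 to -0.28), and Lox, of a collagen cross-linking enzyme (-0.42, -0.49 to -0.36). Adamts1, of a metalloprotease that cleaves proteoglycans, had 214 RPKM in the control, 139 with strain, 126 with medium and 130 with both, where multiplied ratios would give 81.9. Its departure was 0.66 (0.60 to 0.73) on 31706 counts, and the 3 treated libraries stood together under the control. Col24a1, of a fibrillar collagen expressed in bone, had 7.63, 5.11, 3.08 and 3.81 RPKM (0.74, 0.49 to 0.98). Itga8, of an integrin chain, had 12.1, 8.32, 4.91 and 5.53 (0.63, 0.41 to 0.86), and Lrp4, of a co-receptor that binds the Wnt inhibitor sclerostin, 20, 14.6, 8.94 and 9.71 (0.53, 0.38 to 0.68). Matn4, of the matrix protein matrilin 4, had 6.34, 4.39, 5.54 and 6.45 (0.63, 0.26 to 1.01), with strain alone the lowest.

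Other abundant genes of this kind departed by less than 0.5 with narrow intervals. Nov, of a matricellular protein related to Ctgf, had 1395, 1008, 1114 and 1062 RPKM (0.40, 0.37 to 0.43), opposite in sign to Ctgf. Abi3bp, of a matrix-binding protein, had 170, 120, 117 and 114 (0.47, 0.40 to 0.53), and Cald1, of the actin-binding protein caldesmon, 573, 486, 340 and 337 (0.23, 0.19 to 0.26). The actin cytoskeleton list had a median of 0.01 over 31 genes, with none called.

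The genes with the largest positive departures had few counts. The largest, 1.19 (0.38 to 2.0), was that of Gm10557, a pseudogene. Thap3, of a zinc-finger protein, had 5.14, 4.77, 2.53 and 6.37 RPKM on 63, 57, 30 and 71 counts (1.15, 0.52 to 1.79), and the medium library alone was low. Adh1, of an alcohol dehydrogenase that also oxidizes retinol, had 8.18, 5.52, 4.29 and 6.52 RPKM (1.0, 0.47 to 1.53). Apol7a had 1.93, 1.05, 1.15 and 1.89 RPKM (0.95, 0.52 to 1.37), low with each treatment and at the control level with both. AU021092, Serp2, Ccdc24, 2210408F21Rik, Cmc4, 9430069I07Rik, Mrps36, Sorbs2os and Rab10os made up the rest of the 12 largest among protein-coding and lncRNA genes, with sums of 102 to 295 counts, departures of 0.89 to 1.15 and lower ends of their intervals between 0.05 and 0.44. Of these, Ccdc24, Cmc4, 9430069I07Rik, Sorbs2os and Rab10os overlap another expressed gene. Tnnt1, 1 of the 3 counted muscle markers, was called at 0.52 (0.02 to 1.03), and P2ry2, of a nucleotide receptor, at 0.61 (0.13 to 1.10). On the opposite side Coa4, Gm30627, AV051173, Mgst1 and 1500017E21Rik, called at -1.31 to -1.08, had 101 to 163 counts. AV051173 overlaps Prdx1, a gene at 167 to 178 RPKM, and 1500017E21Rik overlaps Hectd2, both on the opposite strand.

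Otor and S100b, chosen after their values were seen, had the lowest sums of single responses of the genes called above. Otor, of a secreted cartilage protein, had 31.2, 21.1, 3.58 and 4.14 RPKM (0.71, 0.14 to 1.29), and S100b, of a calcium-binding protein, 49.2, 32.3, 12.8 and 12.8 (0.59, 0.30 to 0.88). In both, strain was lower than control without medium and within 0.17 log2 with it.

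In RPKM, with the single effects added in place of multiplied, Spp1 and Fth1 were furthest below among named protein-coding genes, with differences of -1157 and -893 RPKM from the sum of the single effects, and Postn furthest above, with 1098. Fth1, of ferritin heavy chain, had 3095, 3171, 7065 and 6248 RPKM and a log2 departure of -0.21 (-0.23 to -0.19). Malat1, an abundant nuclear lncRNA, had 593, 589, 575 and 763 RPKM. The library with both treatments alone was high, and the departure was 0.42 (0.39 to 0.44). Lrp1 (-0.23, -0.26 to -0.21), Tpt1 (-0.23, -0.27 to -0.19), mt-Rnr1 (-0.37, -0.43 to -0.32) and mt-Rnr2 (-0.23, -0.25 to -0.20) lay below. Rn18s-rs5 had 8214, 15132, 11439 and 18159 RPKM and a departure of -0.21 (-0.23 to -0.20). Its level depends on how much ribosomal RNA library preparation left behind, and the part of that was not tested. LOC101056014 overlaps it. LOC108167755 (0.06), Gm41051 (0.01) and Mir6240 (0.18) had the same order of libraries with departures near 0.

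Of the 441 genes past the size with medium alone and kept under both treatments, 9 (2.04%) were called above and 17 (3.85%) below, beside 1.23% and 1.84% of all genes. The acute phase and STAT3 list, which medium moved by a median of 0.93 log2, had a median departure of 0.01 with 9 of 18 genes on each side and none called. Lcn2, of an iron-carrier-binding protein, had 2.13, 1.86, 28 and 30.9 RPKM (0.27, -0.40 to 0.93), and Saa3, of serum amyloid A3, which has near-identical copies, 18.5, 19.7, 134 and 145 (0.04, -0.35 to 0.43). Il4ra, of an interleukin 4 receptor chain (-0.45, -0.67 to -0.24), Osmr, of the oncostatin M receptor (-0.40, -0.51 to -0.28), and Timp1, of a metalloprotease inhibitor (-0.49, -0.68 to -0.30), lay below with intervals clear of 0. Mmp13, of a collagenase, had 5.47, 7.43, 91.3 and 89.2 RPKM (-0.41, -0.68 to -0.15). Kcnj15, of a potassium channel, was called at -0.54 (-0.78 to -0.30), at 2.31, 3.46, 20.7 and 19.1 RPKM, and with added differences was at -0.18.

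Hypoxia and glycolysis genes had a median of -0.09 with none of 32 called, and sterol synthesis genes 0.04 with none of 24 called. Beside the lists that follow, 51.3% of all genes lay below 0 and 1.84% were called below. Of 26 oxidative stress and metallothionein genes 23 lay below additivity, with a median of -0.19. Txnip and Mt2, of a metal-binding metallothionein with close relatives, were called. Mt2 had 167, 222, 723 and 655 RPKM (-0.55, -0.68 to -0.41), and with added differences was at -0.25. Of 77 ribosomal protein genes 63 lay below 0 with a median of -0.10 and none was called, and for 20 p53 targets the median was -0.15 with Bbc3, of a cell-death activator (-0.54, -0.87 to -0.20), called. Of 29 amino acid stress genes, with a median of -0.14, Nupr1 was called at -0.71 (-1.07 to -0.35). YAP and TEAD targets had a median of -0.02 over 20 genes with 3 called below, beside 1.84% of all genes, namely Ctgf, the kinase gene Nuak2 (-0.82, -1.28 to -0.36) and Nt5e (-0.61, -1.07 to -0.16).

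**Figure D5:**
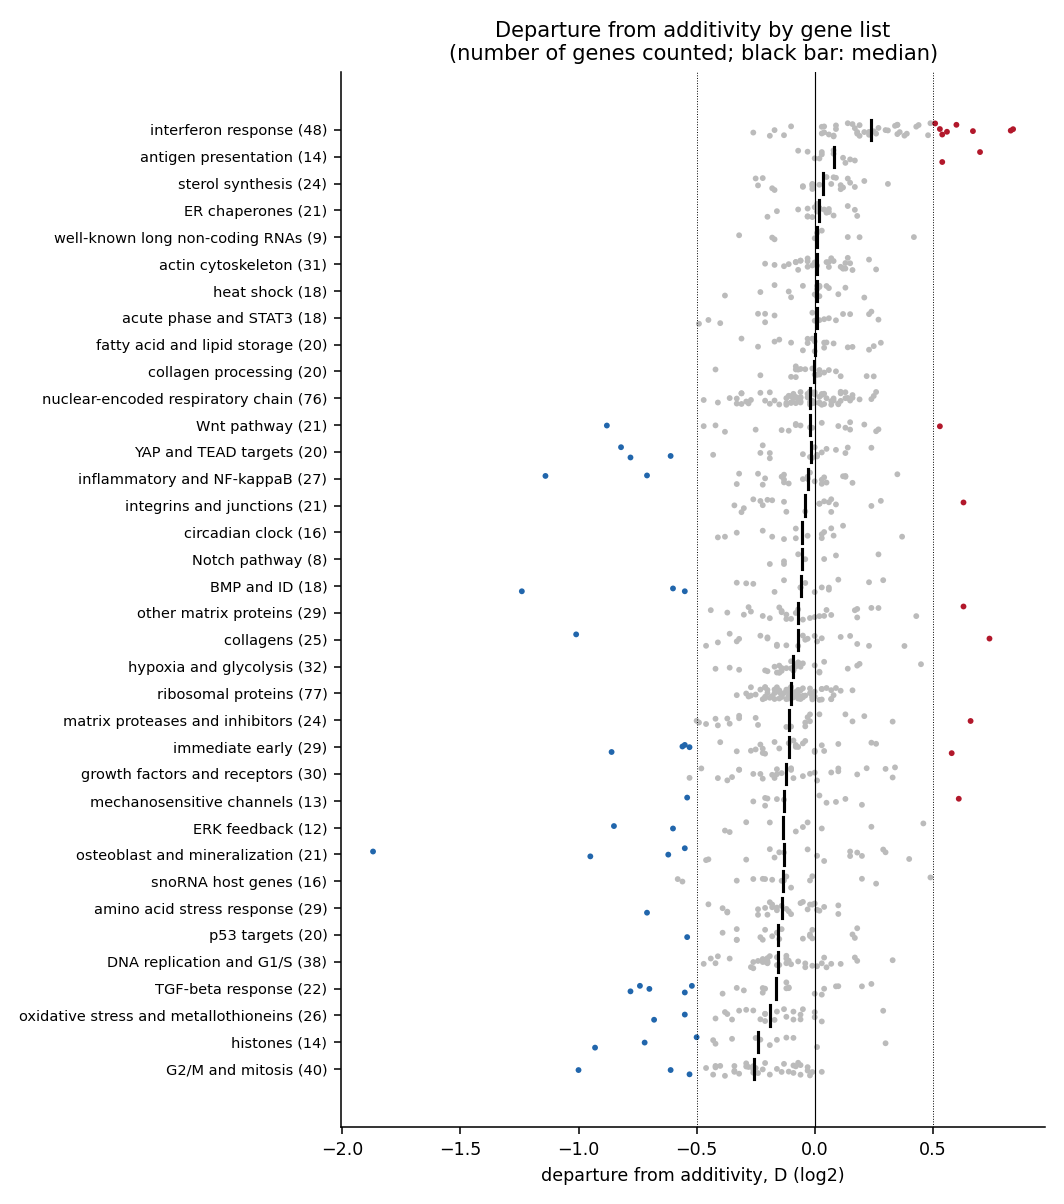
Each point is the departure of 1 gene (x axis, log2) in the list named on the y axis, with the number of its genes that reached the count minimum. Black bars are medians, red and blue points called genes. The interferon list has a median of 0.24 and the G2/M list one of -0.25.

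The list medians kept their sign under every scaling tried for the interferon list (0.15 to 0.37 over all settings), the G2/M list (-0.39 to -0.22), the TGF-beta list (-0.19 to -0.13), the oxidative stress list (-0.21 to -0.15) and the ribosomal protein list (-0.12 to -0.10). The lists for endoplasmic reticulum chaperones, actin cytoskeleton, heat shock, acute phase genes and long non-coding RNAs had medians between -0.02 and 0.02 in all settings and changed sign among them.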

How the data were processed

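RNA of MC3T3-E1 cells was sequenced from a directional NEBNext Ultra kit, per the labels' protocols, in 4 libraries. Reads were aligned with HISAT2 (no version stated), per the submitters' processing notes, which name the build mm9. The table's positions are of a later build: 71.8% of genes matched by Entrez number share chromosome and start with GRCm38.p6. Not given in the sources used here are the counting tool, its strand setting, the annotation and how reads matching more than 1 gene were counted. The authors deposited a whole-number count and an RPKM value per gene and library, per the file headers, and a gene length. The deposited RPKM equals the count scaled by length and library total (relative difference of at most 5.05e-06).

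Departures, counting errors (delta method on Poisson counts, 1 RPKM added) and calls were computed in Python 3.11.15. The code was tried on simulated Poisson counts only. These hold no variation between cultures, so they cannot show how reliable the calls are beyond counting error. PCR copies are not independent molecules. Alternatives used edgeR 4.0.16 (TMM) and DESeq2 1.42.0 (size factors). The genes, lists and rules were chosen with earlier results of these data known. The text names the 12 called protein-coding or lncRNA genes with the largest departures each way, the 6 each way by departure over SE, the 6 each way by linear departure, called members of the lists, and called genes whose response turned by at least 0.5 each way. Others are said to be chosen after their values were seen or stand as members of a list.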

Additional observations from a re-analysis of the deposited data

Results flagged for a closer look

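A named gene is given here where a treatment went with a difference of one sign in the absence of the other treatment and of the other sign in its presence, with both 95% counting intervals clear of 0. Each group had 1 library, and the difference was not tested. The intervals hold counting error only and take the library totals as given. TMM factors were 1.029 for the control, 0.995 for strain, 0.997 for medium and 0.980 for both treatments. The sign of the smallest differences, such as -0.02 for Spp1 and Fn1, therefore depends on the scaling. With TMM scaling Spp1 and Fn1 were slightly higher under both treatments than with medium, so that neither turned. Over all 12041 genes, 150 met this for strain and 113 for medium. Values are the log2 difference without and with the other treatment. Were the strain and medium columns exchanged, the statements on each would exchange too.

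Strain went with higher values without medium and lower values with it for 1500017E21Rik (0.89 and -0.42, departure -1.31), Spp1 (0.93 and -0.02, departure -0.95), Fosl1 (0.56 and -0.30, departure -0.86) and Nupr1 (0.43 and -0.28, departure -0.71). The same held for Mgp (0.54 and -0.07, departure -0.62), Mt2 (0.41 and -0.14, departure -0.55), Kcnj15 (0.43 and -0.11, departure -0.54) and Ier3 (0.27 and -0.26, departure -0.53). It also held for Smad7 (0.24 and -0.27, departure -0.52), Lrp1 (0.21 and -0.03, departure -0.23), Tpt1 (0.20 and -0.04, departure -0.23) and Fn1 (0.20 and -0.02, departure -0.22). So it did for Fth1 (0.03 and -0.18, departure -0.21). Of these, 1500017E21Rik overlaps Hectd2 on the opposite strand. Strain went with lower values without medium and higher values with it for Postn (-0.35 and 0.05, departure 0.40), Erap1 (-0.24 and 0.30, departure 0.54), Col24a1 (-0.50 and 0.24, departure 0.74) and Ifit3 (-0.51 and 0.33, departure 0.84). The same order was found for Apol7a (-0.52 and 0.43, departure 0.95) and Adh1 (-0.49 and 0.51, departure 1.00).

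Medium went with higher values without strain and lower values with it for Sema7a (0.41 and -1.23, departure -1.64), Hmga1 (0.81 and -0.29, departure -1.10), Anxa8 (0.30 and -0.75, departure -1.04) and Ctgf (0.38 and -0.40, departure -0.78). The same held under strain for Ptgs2 (0.30 and -0.42, departure -0.71), Txnip (0.61 and -0.07, departure -0.68), Klf10 (0.36 and -0.20, departure -0.56) and Smad7 (0.29 and -0.23, departure -0.52). Medium went with lower values without strain and higher values with it for Nov (-0.33 and 0.08, departure 0.40), Malat1 (-0.04 and 0.37, departure 0.42), Sorbs2os (-0.44 and 0.45, departure 0.89) and Apol7a (-0.45 and 0.50, departure 0.95). The same order was found for Serp2 (-0.46 and 0.61, departure 1.07) and Gm10557 (-0.57 and 0.62, departure 1.19). Gm10557, a pseudogene of cadherin 11 with 44, 20, 26 and 33 counts, was the only called gene that turned by at least 0.5 each way with both intervals clear of 0, and its reads may be shared with its parent gene Cdh11. It had 5.03 RPKM in the control, 2.34 with strain, 3.06 with medium and 4.14 with both.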

How the results depend on the processing

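The counts of called genes depend on settings that act on low values. With a pseudocount of 0.1 RPKM 242 genes were called above and 327 below, and with 5 RPKM 20 and 54. On ratios of count shares they numbered 245 and 324, with no count filter 324 and 366, and with a sum of at least 400 counts 60 and 124. A size of 1 gave 6 and 22, the size of 0.5 without an interval 182 and 265, and intervals held jointly over all genes, added after the data were seen, 9 and 49. With 5 RPKM added, Etv4 (-0.31), Nuak2 (-0.34), Bmp4 (-0.28), Nt5e (-0.21), Arc (0.20) and P2ry2 (0.22), among others, were under the size of a call. On the linear RPKM scale 198 and 193 genes were called, of which 100 and 161 were among those of the log scale. There 50.6% of calls lay above in place of 40%. TMM scaling gave 131 and 247 and DESeq2 size factors 142 and 231. The median departure was -0.026 with TMM, -0.011 with DESeq2 size factors and 0.002 with no filter, against -0.006. Of 90 named genes 57 stayed within their counting interval on the linear scale, 32 moved beyond it and 1, Fos, reversed to 3.90. Under the other settings none of the 90 reversed. Fosb, not among the 90, also changed sign on the linear scale. The causes were not tested. No paired analysis was possible because each group had 1 library, and for the same reason no library could be left out. At this depth a gene with 100 to under 200 counts had a median counting SE of 0.26. At that SE a departure of only 0.26 has a counting interval that holds 0. The limit of detection for such genes thus lay above 0.26, and a call also needed a departure of at least 0.5.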

Other observations

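Among the 9 genes above and 49 below additivity whose intervals held jointly over all genes, the following were chosen after their values were seen. Hps3, of a factor of lysosome-related organelles, had 14.4 RPKM in the control, 10.2 with strain, 9.68 with medium and 10.4 with both (departure 0.55). Sned1, of a matrix protein, had 30.5, 19.5, 24.4 and 23.1 (0.55), and Pgm5, of an adherens junction protein, 8.98, 6.3, 5.16 and 5.58 (0.55). In each the control was the highest library.

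Below additivity, Errfi1, of an inhibitor of the epidermal growth factor receptor, had 10.7, 18.3, 17.9 and 14.8 RPKM (-0.98), and Epha2, of an ephrin receptor, 9.24, 13.1, 15 and 13.8 (-0.58). Pla2g7, of an enzyme that degrades platelet-activating factor, had 16, 26, 22.3 and 20 (-0.82), and Tnfrsf1b, of a tumour necrosis factor receptor, 5.48, 9.11, 8.1 and 7.71 (-0.71). Prkg2, of a cyclic GMP-dependent kinase, had 3.61, 7.16, 4.75 and 4 (-1.02), and Aqp1, of a water channel, 15.1, 27.1, 11.4 and 12.3 (-0.70), both with strain alone the highest. The mitotic genes Ckap2 (47, 67.3, 39.8 and 38.1 RPKM) and Prr11 (11.7, 16.6, 8.78 and 7.65 RPKM), outside the list of mitotic genes above, had departures of -0.57 and -0.65, and the medium-responsive genes Esd (71.5, 91.1, 148 and 131 RPKM) and Dab2 (16.1, 21, 31.5 and 27.6 RPKM) had -0.52 and -0.54.

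Among genes annotated as small or non-coding RNA other than lncRNA, the mitochondrial tRNA genes TrnG (-1.22) and TrnS2 (-0.85), the nuclear gene Rn7sk (-0.77) and Snora52 (-0.67) were called below and Mir8108 (0.73) above, on 215 to 551 counts.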
